A study of Canis lupus familiaris with 12 samples.

Results

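Glucose uptake and hypoxia-response genes were examined in heart tissue from control dogs and from dogs with degenerative mitral valve disease (DMVD), in which thickened leaflets close poorly and the valve leaks. The set is 10 gene symbols, chosen with earlier results of these data known, of which 8 matched a row among the 24223 genes listed for each tissue. The matched genes were SLC2A3, HK1, HK2, PFKFB3, DDIT4, BHLHE40, STC1 and VEGFA. SLC2A1 and SLC2A4, the basal and the insulin-responsive glucose transporters, matched no row by symbol or protein entry name and were not analysed here. RNA sequencing covered 12 libraries from 8 dogs. The left ventricle group with DMVD held 2 dogs, a Pomeranian aged 9 years and a Jack Russell Terrier aged 5, and its 4 controls were Hound mixes aged 3 and a Beagle aged 8. The mitral valve group with DMVD held 3 dogs, that Pomeranian and Beagles aged 16 and 17, and its 3 controls were that Beagle aged 8 and Hound mixes aged 3. Diagnosis therefore cannot be told apart from breed or age in either tissue. No treatment is named in the labels.

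Cells take up glucose through carrier proteins of the SLC2A family, and hexokinases trap it inside the cell by phosphorylation. The adult heart burns mainly fatty acids, takes up glucose largely through the insulin-responsive carrier SLC2A4 and uses it more under stress or when oxygen is short. When oxygen falls, the hypoxia-inducible transcription factors escape degradation and switch on genes for glucose uptake, glycolysis, vessel growth and growth restraint. Several of these genes also answer to inflammatory, glucocorticoid and stress signals, so they are not specific to low oxygen.

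The values are group values in FPKM (fragments scaled to transcript length and library size), 1 per diagnosis and tissue, and no spread between dogs could be shown. Library depth is unknown. Log2 fold changes compare DMVD with control, so that a positive value is higher in DMVD. Each ± gives a standard error (SE) derived from the statistic of the authors' test. A gene passed at an adjusted p of 0.05, by Benjamini-Hochberg over the authors' p-values for all 13788 genes tested in the ventricle or all 14810 in the valve. Positions are on CanFam3.1, as listed in the tables. Marker genes placed abundant heart muscle RNA in the valve samples: 6 cardiomyocyte markers summed to 19040 FPKM in control ventricle, 16053 in DMVD ventricle, 11971.5 in control valve and 6376 in DMVD valve. Another marker, MYH7, is listed at 0 in the control ventricle with a status that marks it as not computed. Fibroblast and valve interstitial markers summed to 1988 FPKM in control valve and 2274 in DMVD valve, against 369 and 386 in the ventricle. In tissue pieces of this kind, a change in the number of cells of a type and a change in RNA per cell cannot be told apart.

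In the left ventricle, 5 of the 8 genes rose with DMVD, none fell and 3 did not pass, where 1.92% of all tested genes rose. Since the genes were picked with such results known, this count describes them and is not independent evidence. The genes that rose were the glucose transporter SLC2A3, the inducible hexokinase HK2, and the hypoxia-response genes DDIT4, BHLHE40 and STC1. In the mitral valve, SLC2A3 and STC1 rose, none fell and 6 did not pass, where 0.311% of all tested genes rose. The median log2 fold change over the 8 genes was 2.10 in the ventricle and 0.61 in the valve, against -0.04 and 0.05 over all tested genes. At an unadjusted p under 0.05 there were 5 genes of the set in the ventricle (11.3% of all tested genes) and 3 in the valve (4.2% of all tested genes), DDIT4 being the third. With Holm's adjustment in place of Benjamini-Hochberg, HK2 and BHLHE40 in the ventricle and both SLC2A3 and STC1 in the valve did not pass.

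**Figure D1:**
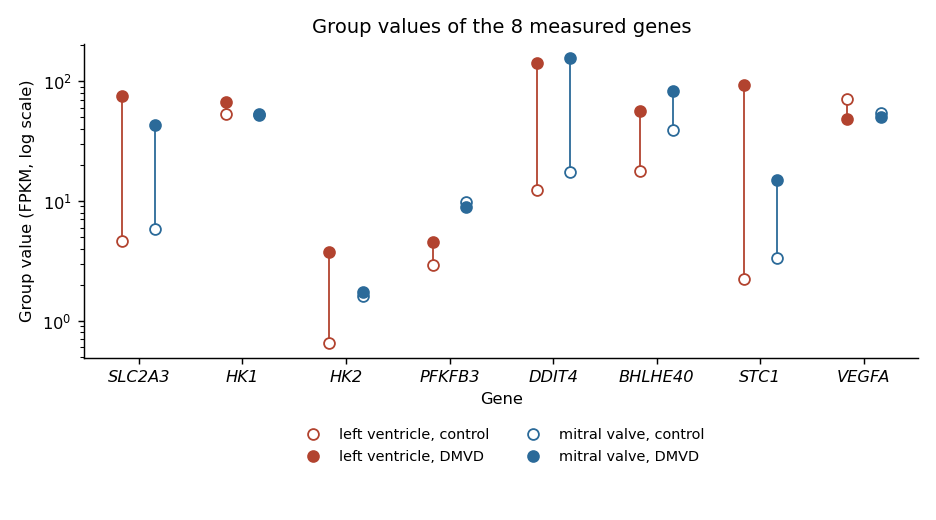
Group values (FPKM, log scale) of the 8 genes in the 4 groups, open points for control, filled points for DMVD, red for left ventricle and blue for mitral valve; each point is 1 group value and a line joins the groups of a tissue. In the ventricle SLC2A3, DDIT4, STC1 and BHLHE40 move from between 2.22 and 17.7 FPKM to between 56.6 and 142, while HK1 and VEGFA lie between 48.7 and 71.2 in both groups.

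Uptake was represented by SLC2A3, a high-affinity glucose carrier best known from neurons and also carried by white blood cells (ENSCAFG00000013918, chromosome 27, 37297931 to 37428383). Its group value in the left ventricle was 4.61 FPKM in control and 76.0 FPKM in DMVD, a 16.5-fold difference. The log2 fold change was 4.04 ± 0.54 (adjusted p = 4.23e-11, the authors' test with Benjamini-Hochberg adjustment). In the valve the group value was 5.81 FPKM in control and 43.5 FPKM in DMVD, a 7.49-fold difference. This log2 fold change was 2.90 ± 0.78 (adjusted p = 0.0476), close to the threshold. SLC2A3 thus had the same order of groups in both tissues, with control values near the middle of all tested genes (above 49.6% of them in ventricle and 49.8% in valve) and DMVD values in the top part (above 92.6% and 88.5%). The listed locus is shared with the transcription factor gene FOXJ2, whose values went the other way, 5.05 FPKM in control ventricle and 2.86 in DMVD ventricle (-0.82 ± 1.83, did not pass).

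SLC2A3 also took up a different share of the carriers that were measured. A total of 10 genes of the glucose transporter families had a value, SLC2A3 and 9 others, which do not include SLC2A1 and SLC2A4. Family members that mainly carry something other than glucose are counted among them. In control ventricle SLC2A3 made up 24.4% of their summed FPKM, below SLC2A12 with 5.99 FPKM and above the fructose carrier SLC2A5 with 3.43. In DMVD ventricle SLC2A3 made up 89.2%, with SLC2A12 at 3.65 FPKM and SLC2A5 at 0.825. In the valve the share was 20.5% in control and 65.5% in DMVD, and these shares have no test. None of the other carriers passed: 0 of 6 tested in the ventricle and 0 of 8 in the valve, with 2 and 0 at an unadjusted p under 0.05. The 2 were SLC2A5 (-2.06 ± 0.70, adjusted p = 0.0828) and the leukocyte carrier SLC2A6 (3.55 ± 1.29, adjusted p = 0.125). SLC2A6 had 0.0534 FPKM in control and 0.626 in DMVD ventricle, and its log2 fold change was 0.63 after 1 FPKM was added to each value. Both were named after their values were seen, as were SLC2A12 and the other relatives of members below that did not pass. SLC2A9, also named in this way, is among the tested carriers in both tissues. Its SE was 17.4 in the ventricle and 17.6 in the valve, too large to show a change of the sizes seen here.

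**Figure D2:**
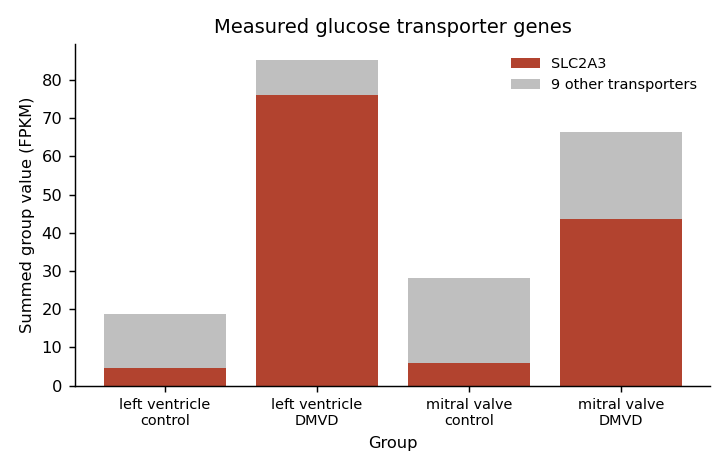
Summed group values (FPKM) of 10 measured genes of the glucose transporter families in each of the 4 groups, with SLC2A3 in red and 9 other carriers in grey. The sum is 18.8 FPKM in control ventricle, 85.2 in DMVD ventricle, 28.3 in control valve and 66.4 in DMVD valve, and the grey part is smaller in DMVD than in control ventricle.

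Hexokinases add a phosphate to glucose, the step that traps it in the cell. HK1, the broadly expressed isoform (ENSCAFG00000013917, chromosome 4, 20449973 to 20531118), had 53.2 FPKM in control ventricle and 67.5 in DMVD ventricle (0.34 ± 0.57, adjusted p = 0.988). In the valve it had 52.6 FPKM in control and 53.8 in DMVD (0.03 ± 0.68). The 95% intervals of these log2 fold changes ran from -0.77 to 1.46 and from -1.30 to 1.37, so a doubling was not excluded by either. HK2, the isoform of insulin-sensitive muscle and a hypoxia target (ENSCAFG00000008265, chromosome 17, 48287079 to 48329544), was far lower. It had 0.646 FPKM in control ventricle and 3.72 in DMVD ventricle, a 5.76-fold difference (2.53 ± 0.56, adjusted p = 0.00066). Valve values of HK2 were 1.60 FPKM in control and 1.72 in DMVD (0.11 ± 0.61, did not pass). The ratio of HK1 to HK2, both per length, was 82.3 in control ventricle and 18.1 in DMVD ventricle, and 32.8 and 31.2 in control and DMVD valve. HK1 was thus the more abundant transcript in all 4 groups. HK2 lay above 7.38% of tested genes in control ventricle and above 45.0% in DMVD ventricle. Its ventricle log2 fold change was 1.52 when 1 FPKM was added to each value. The listed locus of HK1 is shared with the gene TACR2, which was not tested in either tissue.

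PFKFB3 makes fructose 2,6-bisphosphate, the activator of phosphofructokinase, and so sets the pace of glycolysis (ENSCAFG00000005194, chromosome 2, 29728266 to 29748084). It had 2.94 FPKM in control ventricle and 4.51 in DMVD ventricle (0.62 ± 0.76, adjusted p = 0.948). Valve values were 9.88 FPKM in control and 8.88 in DMVD (-0.15 ± 0.53). PFKFB3 did not pass in either tissue. Its heart-typical relative PFKFB2 had 14.2 FPKM in control and 6.78 in DMVD ventricle (-1.06 ± 0.54, adjusted p = 0.442), and 5.76 and 1.89 in the valve (-1.61 ± 0.75, adjusted p = 0.978). PFKFB3 made up 14.5% of the summed FPKM of the 4 PFKFB genes in control ventricle and 35.6% in DMVD ventricle, and 49.7% and 71.3% in control and DMVD valve. These shares have no test.

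DDIT4, an inhibitor of the growth kinase complex mTORC1 that is induced by hypoxia and by glucocorticoids (ENSCAFG00000032469, chromosome 4, 22917000 to 22919498), had the highest DMVD value of the set in both tissues. It had 12.3 FPKM in control ventricle and 142 in DMVD ventricle, an 11.6-fold difference (3.53 ± 0.54, adjusted p = 2.40e-08). In the valve it had 17.6 FPKM in control and 156 in DMVD, an 8.85-fold difference, but with an SE of 1.02 on a log2 fold change of 3.15 it did not pass (adjusted p = 0.227). The p in the authors' deposited table for DDIT4 in the valve was 0.00213. The interval in the valve ran from 1.14 to 5.15 and held the ventricle value. DDIT4L, its relative, had 25.1 FPKM in control and 28.1 in DMVD ventricle (0.16 ± 0.47), and 23.0 and 18.6 in the valve (-0.30 ± 0.52).

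BHLHE40 is a transcriptional repressor that is induced by hypoxia and also feeds into the circadian clock (ENSCAFG00000005621, chromosome 20, 12641693 to 12647281). It had 17.7 FPKM in control ventricle and 56.6 in DMVD ventricle, a 3.20-fold difference (1.68 ± 0.42, adjusted p = 0.00459). The valve had 39.0 FPKM in control and 83.7 in DMVD, a 2.15-fold difference that did not pass (1.10 ± 0.63). Its relative BHLHE41 had lower values, 2.62 FPKM in control and 1.30 in DMVD ventricle (-1.01 ± 0.60, adjusted p = 0.580). The ratio of BHLHE40 to BHLHE41 was 6.74 in control and 43.5 in DMVD ventricle, and 7.10 and 12.3 in control and DMVD valve, with no test.

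STC1, a secreted glycoprotein hormone induced by hypoxia and inflammation (ENSCAFG00000009104, chromosome 25, 33615412 to 33628344), had the largest fold change of the set in the ventricle. It had 2.22 FPKM in control ventricle and 92.8 in DMVD ventricle, a 41.8-fold difference with an interval from 20.8 to 84.0. The log2 fold change was 5.39 ± 0.51 (adjusted p = 3.03e-22). The authors listed the p of STC1 as 0, as for 9 ventricle genes in all. By the normal p of the authors' statistic STC1 ranked 5th smallest in the ventricle. In the valve it had 3.35 FPKM in control and 14.9 in DMVD, a 4.44-fold difference with an interval from 2.10 to 9.38. This log2 fold change was 2.15 ± 0.55 (adjusted p = 0.0297). STC1 stood above 30.4% of tested genes in control ventricle and above 93.7% in DMVD ventricle. Its relative STC2 had 3.65 FPKM in control and 2.04 in DMVD ventricle (-0.84 ± 0.46, adjusted p = 0.501), and 9.69 and 8.07 in the valve (-0.26 ± 0.44). By group value, STC2 was therefore the higher of the pair in both control groups and STC1 in both DMVD groups. The ratio of STC1 to STC2 was 0.608 in control and 45.6 in DMVD ventricle, and 0.346 and 1.84 in control and DMVD valve, with no test.

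VEGFA, the main growth factor for new vessels and a textbook hypoxia target (ENSCAFG00000001938, chromosome 12, 12207946 to 12225072), passed in neither tissue. It had 71.2 FPKM in control ventricle and 48.7 in DMVD ventricle (-0.55 ± 0.51, adjusted p = 0.870). In valve tissue VEGFA had 54.5 FPKM in control and 50.7 in DMVD (-0.10 ± 0.62). The 95% interval in the ventricle ran from -1.55 to 0.46, which leaves out a doubling, and in the valve from -1.31 to 1.11. Of the 8 genes, VEGFA alone had the lower DMVD value in the ventricle, so that 7 had the higher one, as did 46.8% of all tested genes. In the valve VEGFA and PFKFB3 had the lower DMVD value and 6 the higher, as did 54.9% of all tested genes.

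**Figure D3:**
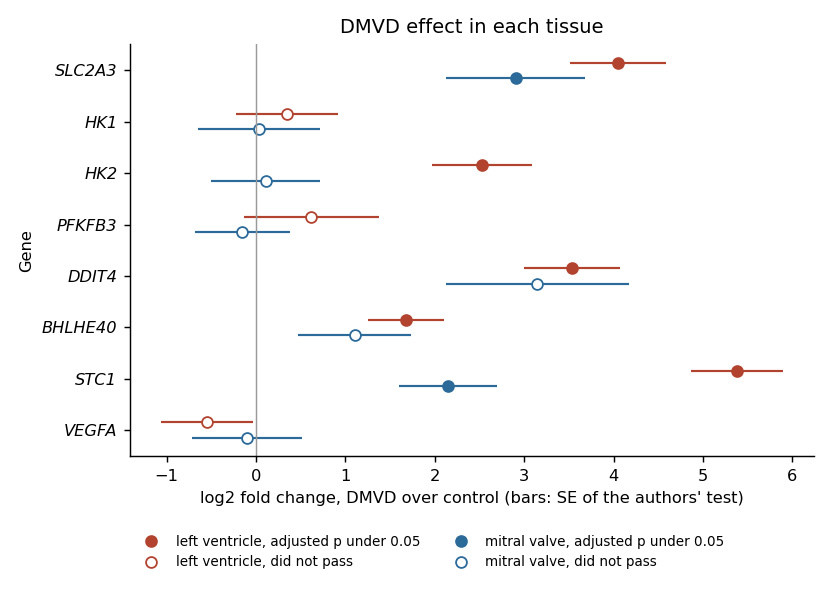
Log2 fold change, DMVD over control, of the 8 genes in left ventricle (red) and mitral valve (blue), with bars of 1 SE from the authors' test; filled points passed an adjusted p of 0.05. SLC2A3 and STC1 are filled in both tissues, HK2, DDIT4 and BHLHE40 in the ventricle, and HK1, PFKFB3 and VEGFA in neither.

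The order of levels within the set differed between the groups. In control ventricle VEGFA and HK1 were highest, BHLHE40 and DDIT4 followed, and SLC2A3, PFKFB3, STC1 and HK2 were below 5 FPKM. In DMVD ventricle DDIT4, STC1 and SLC2A3 were highest, ahead of HK1, BHLHE40 and VEGFA, and PFKFB3 and HK2 were last. In control valve the order was that of control ventricle but for PFKFB3, which stood above SLC2A3. In DMVD valve DDIT4 and BHLHE40 led, HK1, VEGFA and SLC2A3 followed, and STC1, PFKFB3 and HK2 were lowest. With 1 value per group, no pair of neighbours in these orders can be said to differ. Whether the tissues were normalised together is not stated, and the median gene above 1 FPKM in both control groups was 0.31 higher in valve on the log2 scale. Control valve over control ventricle was 1.75 for PFKFB3, 1.31 for HK2, 1.14 for BHLHE40, 0.59 for STC1, 0.52 for DDIT4, 0.33 for SLC2A3, -0.02 for HK1 and -0.39 for VEGFA on that scale, with no test.

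The DMVD effects of the tissues were then compared directly, as valve minus ventricle log2 fold change, adjusted over 13099 genes tested in both, of which 0.107% passed. STC1 passed: its effect was 3.24 smaller in the valve (valve minus ventricle -3.24 ± 0.75, adjusted p = 0.0229). HK2 had the next largest difference, -2.42 ± 0.83, and did not pass (adjusted p = 0.589). The differences were -1.14 ± 0.95 for SLC2A3, -0.77 ± 0.93 for PFKFB3, -0.58 ± 0.76 for BHLHE40, -0.38 ± 1.16 for DDIT4, -0.31 ± 0.89 for HK1 and 0.45 ± 0.80 for VEGFA, and none of these passed. For DDIT4 the interval of the difference ran from -2.65 to 1.88, and for BHLHE40 from -2.07 to 0.91. For HK2 it ran from -4.04 to -0.79 and left out 0, with an unadjusted p of 0.00355 by the test of the difference. Passing in the ventricle and not in the valve was thus not shown to be a difference between tissues for DDIT4 or BHLHE40. The same held for HK2 after adjustment over all genes, though not before it. Part of the dogs gave both tissues, 3 controls and 1 with DMVD, so the SEs of the tissues are not fully independent. STC1 did not pass with Holm's adjustment (adjusted p = 0.228).

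**Figure D4:**
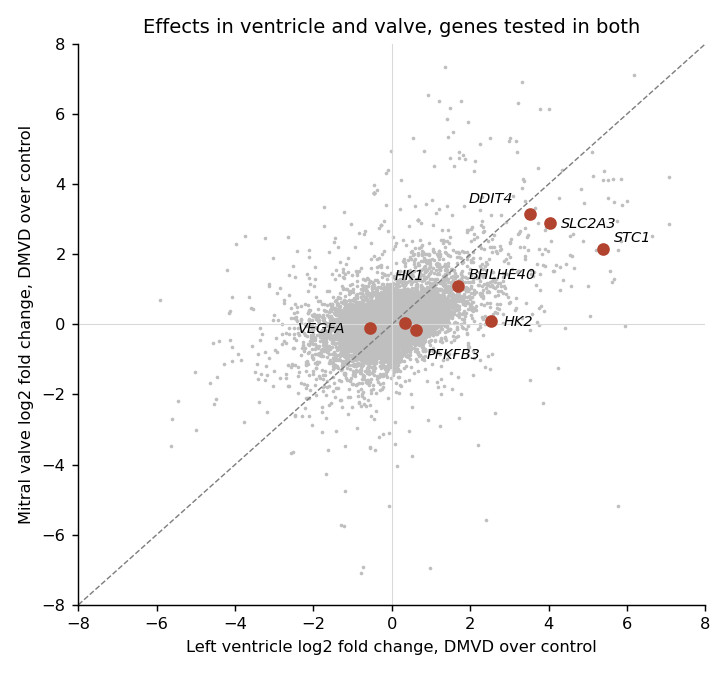
Log2 fold change in the left ventricle (horizontal) against the mitral valve (vertical) for genes tested in both tissues, with 13090 of 13099 inside the axes, the 8 genes in red and the line of equal effects dashed. STC1 (5.39, 2.15) and HK2 (2.53, 0.11) lie farthest below the dashed line among the 8, and HK1, PFKFB3 and VEGFA lie within the mass of genes.

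Other genes of these pathways came from 11 lists with 144 symbols, of which 117 matched. The lists were also chosen with earlier results of these data known. Counts over them therefore describe the lists and are not independent evidence. In the ventricle 10 of the 107 tested rose and 1 fell, where 1.92% of all tested genes rose and 1.16% fell, and 28 had an unadjusted p under 0.05, against 11.3% of all tested genes. In the valve 0 of 112 passed the authors' test with Benjamini-Hochberg adjustment, where 0.311% of all tested genes rose, and 7 had an unadjusted p under 0.05, against 4.2% of all. The rises were mostly among other hypoxia-response targets, where 6 of 19 rose, none fell and 13 did not pass; the list's median was 0.69. Their smallest p belonged to the small MAF protein MAFF (2.50 to 29.1 FPKM, 3.54 ± 0.46), the collagen cross-linking enzyme LOX (0.867 to 4.86 FPKM, 2.49 ± 0.48) and the endoplasmic reticulum oxidase ERO1L (4.23 to 14.7 FPKM, 1.80 ± 0.44), control to DMVD. The locus of ERO1L is shared with other genes. In the valve 0 of these 19 passed, 1 had an unadjusted p under 0.05, 14 had the higher value in DMVD (54.9% over all tested genes) and the median was 0.52.

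The oxygen-sensing machinery itself, hypoxia-inducible factor subunits, prolyl hydroxylases and the ubiquitin ligase subunit VHL, held no gene that passed. HIF1A matched no row. Of 8 tested genes 0 passed in the ventricle, also 0 at an unadjusted p under 0.05, and 7 had the lower value in DMVD, as did 53.2% of all tested genes (median -0.27). The factor EPAS1, named after its values were seen, had 25.9 FPKM in control and 17.4 in DMVD ventricle (-0.58 ± 0.43). In the valve 0 of 8 passed and 0 had an unadjusted p under 0.05 (median 0.05). Among VEGF and angiopoietin ligands and receptors, 1 of 12 rose in the ventricle, the placental growth factor PGF, from 1.06 to 5.18 FPKM (2.28 ± 0.54, adjusted p = 0.00171), and 11 did not pass. An unadjusted p under 0.05 was found for 5 of the 12, of which PGF, VEGFC, FLT1 and ANGPT2 had the higher value in DMVD. In control and DMVD ventricle VEGFC had 5.57 and 12.4 FPKM, FLT1 11.0 and 21.1, and ANGPT2 0.890 and 2.34. The remaining gene was NRP1, a coreceptor for VEGF, with the lower value in DMVD, 12.02 FPKM in control and 4.74 in DMVD (-1.34 ± 0.43, adjusted p = 0.0567). VEGFC, FLT1, ANGPT2 and NRP1 were also named after their values were seen. Of 12 in the valve 0 passed, with 1 at an unadjusted p under 0.05.

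The next lists hold glycolysis and glucose handling downstream of uptake. Of 5 other hexokinase and phosphofructokinase control genes 0 passed in the ventricle, with 3 at an unadjusted p under 0.05 and a median of -1.06. In the valve 0 of 6 passed, with 2 at an unadjusted p under 0.05 and a median of -0.89. Among those genes the muscle phosphofructokinase PFKM, named after its values were seen, had 314 FPKM in control and 129 in DMVD ventricle (-1.28 ± 0.53, adjusted p = 0.232), and 273 and 121 in the valve (-1.17 ± 0.63). The list of lower glycolysis and lactate held 16 symbols, of which 8 matched and 6 were tested. ALDOA, PGK1, PKM and LDHA were not among the matched genes, so much of this part of the pathway was not measured. Of the 6 tested genes 1 rose in the ventricle, the lactate exporter SLC16A3, from 1.50 to 7.26 FPKM (2.27 ± 0.68, adjusted p = 0.0289), or 1.72 after 1 FPKM was added to each value. Of the same 6 genes 0 passed in the valve, with 2 at an unadjusted p under 0.05 that went opposite ways: SLC16A3 had 2.34 FPKM in control and 10.6 in DMVD (2.18 ± 0.83, adjusted p = 0.535). The muscle enolase ENO3, also named after its values were seen, had 282 FPKM in control and 78.3 in DMVD (-1.85 ± 0.52, adjusted p = 0.064). None of 11 glycogen genes passed in either tissue, with 2 at an unadjusted p under 0.05 in the ventricle and 1 in the valve, and 11 of 11 had the lower DMVD value in the valve, against 45.1% of all tested genes (median -0.54). In the ventricle 8 of the 11 glycogen genes had the lower DMVD value, against 53.2% of all tested genes (median -0.46). Of 7 tested heart muscle markers 6 had the lower DMVD value in the valve (median -1.26), where only the light chain MYL3 passed. In the ventricle 5 of 6 had the lower value (median -0.34) and none passed. The part of heart muscle content in the values of the glycogen genes, PFKM and ENO3 was not tested. None of 6 genes of pyruvate dehydrogenase control passed, with 1 and 0 at an unadjusted p under 0.05 in ventricle and valve.

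Of 11 genes of insulin and AMPK control, the insulin receptor substrate IRS2 rose in the ventricle, from 4.32 to 13.7 FPKM (1.66 ± 0.43, adjusted p = 0.00606), and 10 did not pass; 2 of the 11 had an unadjusted p under 0.05. Valve values passed for 0 of the 11, and 0 had an unadjusted p under 0.05. None of 10 tested genes of mTORC1 control passed in the ventricle, also at an unadjusted p under 0.05, and the same held for 12 in the valve. Of 13 clock genes, ARNTL, the core activator, rose in the ventricle from 0.915 to 3.37 FPKM (1.88 ± 0.58, adjusted p = 0.0417) and PER3, a repressor, fell from 1.69 to 0.45 FPKM (-1.91 ± 0.49, adjusted p = 0.00623), while 11 did not pass. After 1 FPKM was added to each value, ARNTL had 1.19 and PER3 -0.89. In the ventricle 5 of the 13 had an unadjusted p under 0.05. ARNTL and NPAS2 had the higher DMVD value there, and PER3, NR1D2 and TEF the lower. NPAS2, NR1D2 and TEF were named after their values were seen. In the valve 0 of the 13 clock genes passed or had an unadjusted p under 0.05. The time of day at sampling is not given in the labels used here.

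**Figure D5:**
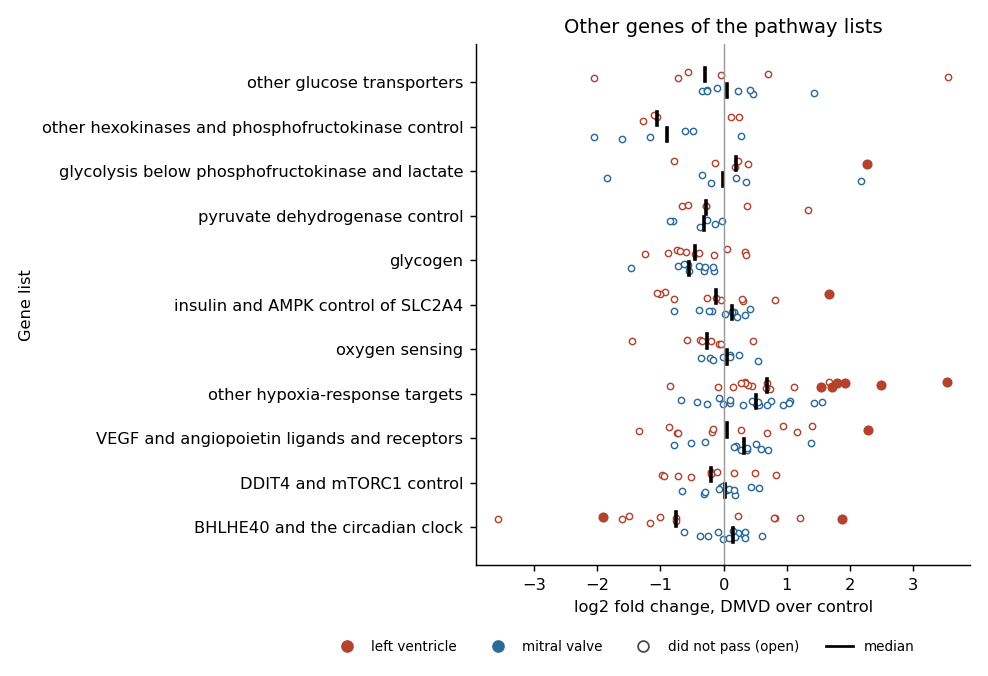
Log2 fold change, DMVD over control, of each tested gene in 11 pathway lists, red for left ventricle and blue for mitral valve, filled where the adjusted p was under 0.05, with a black bar at the median. Filled points are all red, 10 to the right of 0 and 1 to the left, and 6 of them lie in the list of other hypoxia-response targets.

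Markers of blood and immune cells also had higher DMVD values in the ventricle. Sums below are over all matched markers of a list. The marker lists were chosen with earlier results of these data known, so their counts are not independent evidence. Of all tested ventricle genes 1.92% rose, 1.16% fell and 11.3% had an unadjusted p under 0.05. In the ventricle 4 of 4 tested erythroid markers rose, with a summed level of 62.6 FPKM in control and 3604 in DMVD, among them HBA and AHSP. All 5 tested neutrophil markers rose there, with 14.2 FPKM summed in control and 378 in DMVD, among them S100A9 and S100A8. Of 6 macrophage and monocyte markers 2 rose, FCGR1A and C1QB, and the sum was 29.6 and 80.2 FPKM. Of 7 endothelial markers 2 rose, ROBO4 and VWF, with sums of 114 and 194 FPKM. Both tested adipocyte markers, PLIN1 and CIDEC, fell, with sums of 8.02 and 0.638 FPKM. No cardiomyocyte (6 tested, 0 at an unadjusted p under 0.05), fibroblast (5, 0) or smooth muscle and pericyte marker (7, 1) passed. The part of these cells in the rise of SLC2A3, HK2, DDIT4, BHLHE40 and STC1 was not tested.

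In the valve fewer markers of these lists passed, and a heart muscle marker fell. Of all tested valve genes 0.311% rose and 4.2% had an unadjusted p under 0.05. HBA was the 1 of 4 erythroid markers that rose (sum 35.8 FPKM in control and 608 in DMVD), with HBM listed at 0 in control. S100A9 was the 1 of 4 neutrophil markers that rose (sum 8.57 and 43.3 FPKM), with CXCR2 listed at 0 in control, and C1QB the 1 of 6 macrophage markers (69.3 and 216 FPKM). The ventricular light chain MYL3 fell, from 1335 to 36.6 FPKM (-5.19 ± 0.68), and the other 6 cardiomyocyte markers did not pass. Their not passing does not show a stable muscle content. With MYL3 counted, 6 of the 7 had the lower DMVD value (median -1.26), against 45.1% of all tested genes. None of 7 endothelial, 5 fibroblast, 7 smooth muscle and pericyte or 2 adipocyte markers passed, with 2, 0, 2 and 2 at an unadjusted p under 0.05. The part of these differences in the valve values of SLC2A3 and STC1 was not tested.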

How the data were processed

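Per the labels' protocols, TruSeq libraries were made from total RNA extracted with a fibrous-tissue kit. The submitters' processing notes name cutadapt, Bowtie, TopHat and CanFam3.1, without versions; which program made the values per gene is not stated in those notes. The authors deposited 1 table per tissue with group values, read as FPKM from the column layout, and an unadjusted p-value per gene. The authors' p equals the two-sided normal p of their statistic to within 2.84e-06, so the SE is the log2 fold change over the statistic; where p is listed as 0 (9 ventricle genes), the normal p was used. It is a model error on 2 against 4 ventricle and 3 against 3 valve libraries. The effects of the tissues were compared by their difference over the root of the summed squared SEs, with a two-sided normal p. The calculation of that test and of the Benjamini-Hochberg adjustment was run on simulated data with independent errors in the tissues. Those data took the SE as given, so they check neither the SE nor the effect of dogs that gave both tissues. The planned fits, such as limma on values per library, could not be run on group values, so the authors' p-values were adjusted in their place.

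The members and lists were chosen with earlier results of these data known. Named genes were all members, up to 3 genes per pathway list and 2 per marker list that passed in a tissue, and the 5 genes nearest to the member with the smallest ventricle p; others are marked as named after their values were seen. Entry names of proteins were translated for list genes, VEGFA among them; 47 of 62 marker symbols matched, and 1 listed symbol that stood on more than 1 row was left out. Alternatives were other adjustments, a mean of at least 1 FPKM, added values of 0.1 or 1 FPKM, and centring on the median gene. Calculations used scipy 1.17.1, pandas 2.3.3 and numpy 2.4.6 under Python 3.11.15, and matplotlib 3.10.9 drew the plots.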

Additional observations from a re-analysis of the deposited data

Results flagged for a closer look

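The DMVD effect on STC1 differed between the tissues by the test of the difference itself: valve minus ventricle was -3.24 on the log2 scale, with an adjusted p of 0.0229 over 13099 genes and an interval from -4.71 to -1.76. Control levels were 2.22 FPKM in ventricle and 3.35 in valve, and DMVD levels were 92.8 and 14.9. The DMVD dogs of the tissues share 1 animal, so dog and tissue cannot be told apart.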

How the results depend on the processing

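With Holm's adjustment in place of Benjamini-Hochberg, 3 members passed in the ventricle in place of 5, 0 in the valve in place of 2, and 0 in the difference between tissues in place of 1. HK2 then had an adjusted p of 0.0946 and BHLHE40 of 0.969 in the ventricle, and SLC2A3 and STC1 did not pass in the valve. Adjusting only over genes whose mean reached 1 FPKM left the counts of members at 5, 2 and 1, and centring on the median gene left the count for the difference at 1. Of 16 log2 fold changes, 14 moved by less than their SE when 1 FPKM was added to both groups; HK2 (1.52) and STC1 (4.86) in the ventricle moved by more. With 0.1 FPKM added, or centring, all 16 moved by less than their SE. The median over members was 1.57 in the ventricle and 0.58 in the valve with 1 FPKM added. No paired analysis was possible because the tables hold 1 value per group, and leaving out each replicate was not run for the same reason. Depth per library is unknown, so the precision of low values such as HK2 rests on the authors' model alone.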

Other observations

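The genes whose pair of log2 fold changes lay nearest to that of STC1, by straight-line distance over 2 comparisons among 6423 genes, were the small nucleolar RNA SNORD44, the activin subunit INHBB, the calcium-binding protein S100A8, the G-protein regulator RGS1 and the anti-apoptotic gene BCL2A1. Their distances were 0.53, 0.91, 0.91, 1.03 and 1.12 on the log2 scale. INHBB had 2.09 FPKM in control and 48.9 in DMVD ventricle, and 2.20 and 12.5 in the valve. SNORD44 had an SE of 3.25 in the ventricle, larger than its distance to STC1. This likeness is a description, with no test.

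GAPDH and ENO1, glycolytic genes that every cell uses, are listed at or near 0 in both tissues: ENO1 at 0 in all 4 groups, and GAPDH at no more than 0.0211 FPKM. Their rows were not tested by the authors, and no level is read from them here.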
